A study of Homo sapiens with 105 samples.

Results

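The 8 genes of the human SMAD family (SMAD1, SMAD2, SMAD3, SMAD4, SMAD5, SMAD6, SMAD7 and SMAD9) and the corepressor genes SKI and SKIL were followed through 5 comparisons of human granulosa cell lines. They were taken by symbol, which gave 10 genes of the 26330 listed in each table, and every one of the 10 had an adjusted p in all 5 tables. HGrC1, a human granulosa cell line, had been transduced and carried wild-type FOXL2 (WT), the C134W form of FOXL2 (C134W) or, as control, an empty vector (EV), and each of these was sequenced with and without stimulation by TGF-beta (TGF below). KGN, a line from a granulosa cell tumor that is heterozygous for FOXL2 C134W, was also sequenced with and without TGF. The 27 RNA samples in the labels are 3 per group in HGrC1, which has 6 groups, 4 of untreated KGN and 5 of KGN with TGF, all grown in medium with serum. The sources used here do not name the promoter of the vector or the dose and duration of TGF. Each cell line is 1 line, so the results describe these lines.

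TGF-beta and activin bind serine-threonine kinase receptors that phosphorylate SMAD2 and SMAD3, whereas receptors for bone morphogenetic proteins (BMPs) and anti-Mullerian hormone phosphorylate SMAD1, SMAD5 and SMAD9. The phosphorylated SMADs join SMAD4 and enter the nucleus to regulate genes together with other transcription factors. SMAD6 and SMAD7 hold this signaling back at the receptors, SKI and SKIL hold it back on chromatin, and SMAD7 and SKIL are themselves classical targets of TGF-beta, which closes a negative feedback loop. In granulosa cells these pathways carry the signals of activin, growth differentiation factors and anti-Mullerian hormone, and FOXL2 is a forkhead factor that keeps granulosa cell identity and can bind SMADs.

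The authors deposited 1 table per comparison. In HGrC1 these set C134W against WT and against EV, once without and once with TGF, and in KGN treated against untreated cells. A table gives each gene a mean of normalized counts over both groups, a log2 fold change with its standard error (written ± below), and p-values from DESeq2. Fold changes and differences are called "higher", "lower", "raised" or "lowered", or differing in response, at an adjusted p under 0.05; implied levels are described without a test. No table holds a value per library, so neither the spread between libraries nor the number of libraries that share a direction can be shown. Each HGrC1 table behaved as 6 libraries, at an estimated 5490000 to 19650000 assigned reads per library. The KGN table behaved as 11, 5 of them with TGF and 6 without, at 3590000 to 16540000 reads, where the labels list 9. The labels do not tell whether replicates were separate cultures, and the p-values then cover only the spread between these samples, technical spread included. Group levels below are implied levels: the mean and fold change of a table, with the statistical moderation of the fold change undone, give each group's mean, which was expressed per 1000000 of the group's sum over genes (CPM). They carry no error, are not divided by transcript length, and are therefore set side by side within a gene and never between genes. Tables were normalized separately, so no test was made between levels with and without TGF in HGrC1, and KGN levels stand beside those of HGrC1 without a comparison.

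Promoter sequences are shown for SMAD6, SMAD7 and SKIL, because their response to TGF differed between HGrC1 genotypes by the tests given further on. SMAD9 also met that condition, and its 1 window is not printed because none of the 3 motifs was found in it. Each is the 250 bases before the outermost annotated start, from RefSeq on GRCh38.p14, read in the direction of transcription. The stretches are chr15:66701986-66702235 on the plus strand for SMAD6, chr18:48950966-48951215 on the minus strand for SMAD7 and chr3:170357465-170357714 on the plus strand for SKIL. Capitals mark matches to 3 SMAD-binding motifs.
SMAD6: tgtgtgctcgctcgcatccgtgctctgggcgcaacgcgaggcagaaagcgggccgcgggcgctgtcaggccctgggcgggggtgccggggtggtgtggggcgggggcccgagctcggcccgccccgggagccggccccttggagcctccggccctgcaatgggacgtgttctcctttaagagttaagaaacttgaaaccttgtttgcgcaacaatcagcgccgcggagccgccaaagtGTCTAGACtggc
SMAD7: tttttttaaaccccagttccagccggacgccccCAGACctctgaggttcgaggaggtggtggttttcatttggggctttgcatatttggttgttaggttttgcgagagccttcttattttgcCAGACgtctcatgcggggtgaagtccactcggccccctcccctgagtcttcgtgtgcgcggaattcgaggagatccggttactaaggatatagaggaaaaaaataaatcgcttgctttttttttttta
SKIL: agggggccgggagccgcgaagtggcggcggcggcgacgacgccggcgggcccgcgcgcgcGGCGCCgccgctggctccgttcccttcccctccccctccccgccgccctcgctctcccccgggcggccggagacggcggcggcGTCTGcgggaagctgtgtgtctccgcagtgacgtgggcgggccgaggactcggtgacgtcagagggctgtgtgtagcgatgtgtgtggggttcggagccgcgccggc

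The palindromic SMAD box GTCTAGAC began 12 bases before the SMAD6 start, and it was found in 64 of 35116 promoter windows of this length, 0.182%. The core SMAD box CAGAC, searched on both strands, lay 217 and 128 bases before the SMAD7 start and, as GTCTG, 107 bases before the SKIL start. That core is short and was found in 38.0% of all windows. The GC-rich box GGCGCC lay 190 bases before the SKIL start and was found in 16.4% of all windows. No match overlapped another in the printed stretches. Over the 20 windows at hand for 9 of the 10 genes, the palindrome was in 1, the core box in 6 and the GC-rich box in 7. A forkhead core, TGTTTAC, was in 0 of the 20 and in 2.98% of all windows, and an AP-1 site, TGAGTCA, was in 2 of the 20 and in 4.20% of all. These matches describe letters in the windows and not binding, and no window was at hand for SKI.

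The transduced gene followed its labels. FOXL2 (chromosome 3, 138944224 to 138947137) had an implied level of 0.97 CPM in EV, 147 in WT and 136 in C134W without TGF, and of 0.82, 95.1 and 82.5 with TGF. Its log2 fold change over EV in the authors' deposited tables was 6.27 ± 0.20 in untreated C134W cells and 6.16 ± 0.24 in treated ones, both higher. With TGF it was also lower in C134W than in WT, at -0.27 ± 0.11 (adjusted p = 0.0339) by the authors' deposited table, and without TGF it was -0.13 ± 0.06 (adjusted p = 0.0902). Of 15 granulosa markers, 10 or 11 had a mean of at least 10 normalized counts in every table, among them GATA4 and FOXL2. FOXL2 is no marker of HGrC1 here, because each HGrC1 table includes cells transduced with it and its level in EV was below 1 CPM. WT1 was at 77.4 to 120 in the HGrC1 tables and at 0.13 in KGN. FSHR, the receptor for follicle-stimulating hormone, was below 1 in all 5 tables, and NR5A1 was below 1 in the HGrC1 tables and 829.9 in KGN. The summed mean of 3 theca markers was 0.05 to 2.65, and that of 3 endothelial markers 5.1 to 20.8. Of 3 immune markers CD3E was at 0 in all 5 tables and CD68 at 23.0 to 126, and of 5 oocyte markers DAZL and BMP15 were at 0 and ZP3 at 0.57 to 80.9. The Sertoli markers were SOX9, at 188 to 339, and DMRT1, below 1. The part of other cell types in the results below was not tested, and in RNA from whole cultures fewer cells of a type and less RNA per cell cannot be told apart.

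C134W differed from WT with TGF at 5 of the 10 genes in the authors' deposited table, where 34.6% of 14475 tested genes passed, 17.3% upward and 17.4% downward. SMAD1 and SMAD6 were higher there, and SMAD7, SKIL and SMAD9 were lower. Without TGF 4 of 10 passed in the authors' deposited table against 22.4% of 12463 genes (10.9% upward, 11.5% downward), with SMAD3 and SMAD1 higher and SMAD9 and SMAD6 lower. C134W differed from EV with TGF at 7 of 10 in the authors' deposited table, against 42.7% of 15477 genes (22.5% upward, 20.2% downward), with SMAD3, SMAD1, SMAD5 and SKI higher and SMAD7, SMAD9 and SKIL lower. Without TGF 3 of 10 passed in the authors' deposited table, SMAD3, SMAD6 and SKI, all of them higher, against 25.7% of 13306 genes (13.7% upward, 12% downward). TGF changed 7 of 10 in KGN by the authors' deposited table, against 39.8% of 15719 genes (19.8% upward, 20% downward), with SMAD1, SMAD5, SMAD7 and SKIL higher and SMAD2, SMAD3 and SMAD9 lower. These shares include genes of low mean. When only genes with a mean of at least 50 were adjusted, the same members passed. Of all such genes, 4648 of 10696 passed against WT with TGF and 2763 of 10617 without. Against EV 5917 of 11017 passed with TGF and 3052 of 10685 without, and in KGN 5312 of 10330. The median size of the log2 fold change over the 10 genes was 0.27 with TGF against WT, where it was 0.21 over all tested genes. The same pair of medians was 0.15 and 0.11 without TGF against WT, 0.44 and 0.28 with TGF against EV, 0.24 and 0.18 without TGF against EV, and 0.20 and 0.23 in KGN. Without SMAD9, an alternative chosen after seeing the data, the median over the members was 0.12 against WT both with and without TGF. It was then 0.29 against EV with TGF, 0.22 against EV without TGF and 0.17 in KGN. When the test statistic was divided by its own spread over all genes (an empirical null), 0 of the 10 genes passed against WT with or without TGF (3 and 2 at an unadjusted p under 0.05), where 5.4% and 4.69% of all genes did. It left 3 against EV with TGF (SMAD3, SMAD7 and SKIL; 8.73% of all genes), 1 against EV without TGF (SMAD3; 6.76%) and 1 in KGN (SMAD3; 8.68%). The comparisons against WT and EV share their C134W libraries, so they are given side by side.

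**Figure D1:**
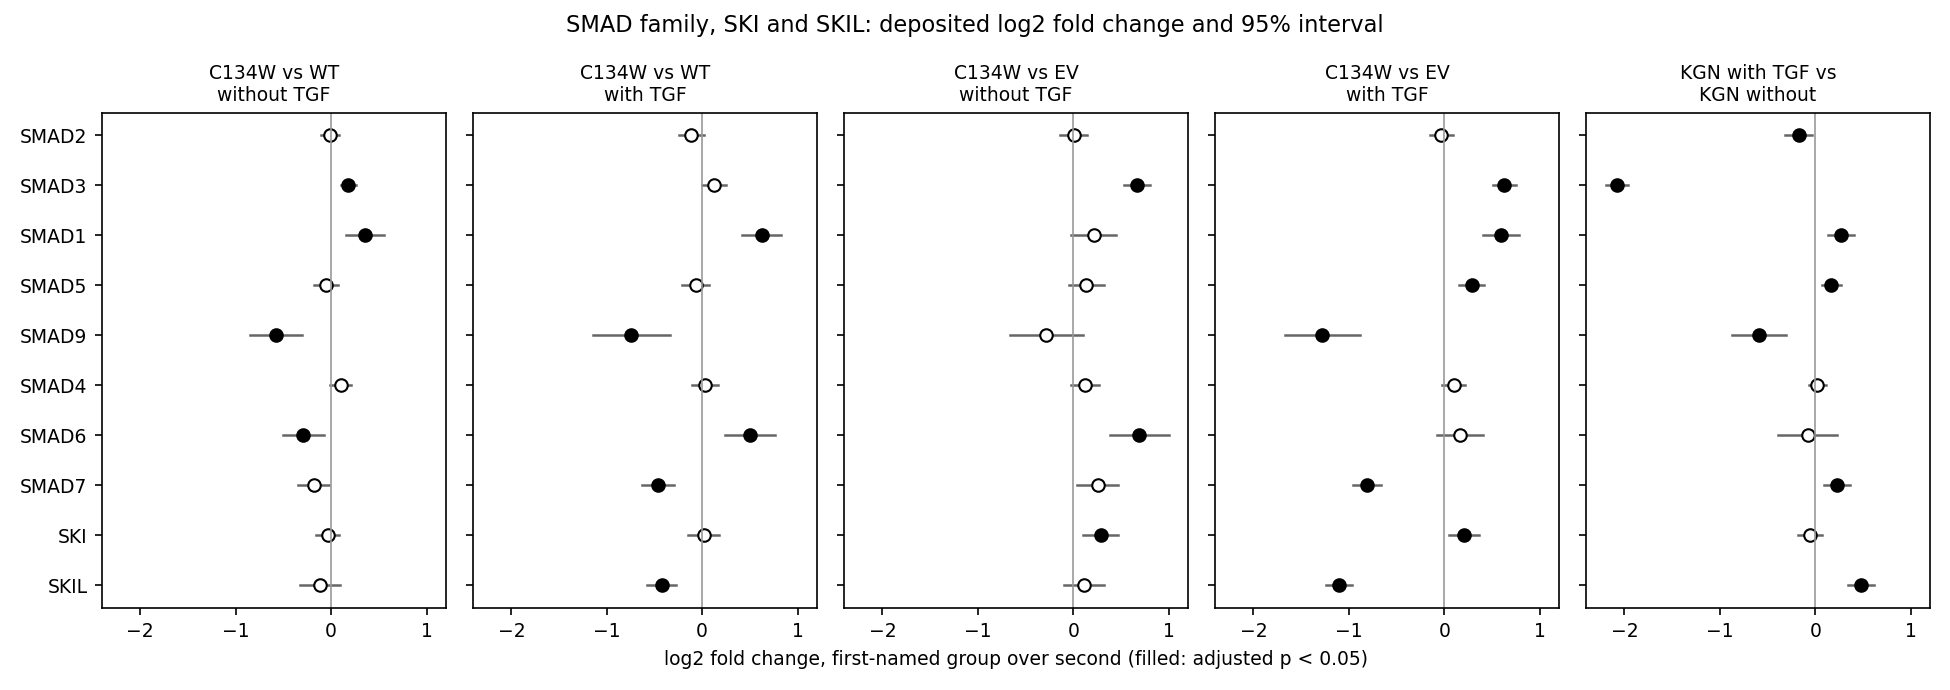
Deposited log2 fold change of each gene (horizontal axis, first-named group over second, with its 95% interval) in the 5 comparisons, 1 panel each; filled points have an adjusted p under 0.05. SMAD2 and SMAD4 stay near 0 in every panel, SMAD3 stands at -2.08 in KGN, and SKIL, SMAD7 and SMAD9 lie furthest below 0 in C134W against EV with TGF.

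SMAD2 (chromosome 18, 47808957 to 47930872), 1 of the 2 SMADs that TGF-beta receptors phosphorylate, was nearly level across the groups. Without TGF its implied level was 162 CPM for EV, 157 for WT and 159 for C134W, and with TGF it was 147, 146 and 142. In KGN it was 126 without TGF and 107 with TGF. None of the 4 HGrC1 comparisons in the authors' deposited tables called it, with values from -0.11 ± 0.07 to 0.00 ± 0.07. It was lower with TGF in KGN, at -0.17 ± 0.07 (adjusted p = 0.0405) in the authors' deposited table, a call that ended when all genes with a p-value were adjusted together (adjusted p = 0.0504).

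SMAD3 (chromosome 15, 67065602 to 67195169), the SMAD2 paralog that binds DNA directly, differed both between genotypes and with TGF. Without TGF its implied level was 191 CPM for EV, 257 for WT and 298 for C134W. With TGF the levels were 125, 167 and 191 in the same order, and in KGN they were 642 without TGF and 145 with TGF. In each HGrC1 genotype the implied level with TGF lay below that without, and the level of EV lay below those of WT and C134W under both conditions, with no test between levels. C134W was higher than EV by 0.67 ± 0.07 without TGF (adjusted p = 3.05e-20) and by 0.63 ± 0.06 with TGF (adjusted p = 3.53e-23) in the authors' deposited tables. WT was higher than EV by 0.49 ± 0.08 without TGF (adjusted p = 2.91e-08) and by 0.51 ± 0.09 with TGF (adjusted p = 1.56e-07), by the z test of the difference between 2 deposited fold changes. That test gave differences between WT and EV at 4 of the 10 genes without TGF, where 18.7% of 15245 genes passed (9.98% upward, 8.73% downward), and at 4 with TGF, where 32.5% of 15523 passed (17.7% upward, 14.8% downward). C134W was higher than WT by 0.18 ± 0.04 without TGF (adjusted p = 7.26e-05) in the authors' deposited table, and with TGF the value there was 0.12 ± 0.06 (adjusted p = 0.142). Under the empirical null 2 genes passed between WT and EV without TGF (SMAD3 and SMAD6) where 6.33% of all genes did, and 0 with TGF (2 at an unadjusted p under 0.05) where 5.49% did. With TGF, the deposited difference of 0.12 ± 0.06 between C134W and WT given above did not pass.

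Read as a log2 ratio of implied levels, the SMAD3 response to TGF came to -0.61 for EV, -0.62 for WT and -0.64 for C134W. The tests of a difference between these responses gave 0.02 ± 0.12 for WT against EV, -0.04 ± 0.09 for C134W against EV and -0.06 ± 0.08 for C134W against WT, none of which passed, with 95% intervals that ran from -0.22 to 0.26. KGN had the largest change of any of the 10 genes in any table: SMAD3 was lower with TGF by the authors' deposited table, at -2.08 ± 0.06 (adjusted p = 1.13e-282), which is a 4.22-fold lower level. Of 8952 genes with a mean of at least 100 in the KGN table, 35 had a fold change at least as low, SMAD3 itself among them. Its mean there was 3508 normalized counts.

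SMAD1 (chromosome 4, 145480770 to 145559176), a SMAD of the BMP branch, was highest in C134W in HGrC1. Without TGF its implied level was 24.1 CPM for EV, 20.3 for WT and 27.5 for C134W, and with TGF it was 31.6, 28.9 and 47.3. KGN stood at 37.4 without TGF and 43.4 with TGF. C134W was higher than WT, by the authors' deposited values, by 0.36 ± 0.10 without TGF (adjusted p = 0.00403) and by 0.62 ± 0.11 with TGF (adjusted p = 3.91e-08). Against EV, SMAD1 was higher in C134W by 0.59 ± 0.10 with TGF (adjusted p = 3.6e-09) in the authors' deposited table, and the value without TGF was 0.22 ± 0.12 (adjusted p = 0.193). WT and EV, the lower pair in both conditions, did not differ beyond their error, at -0.14 ± 0.16 without TGF and -0.03 ± 0.14 with TGF. The response to TGF in C134W did not pass as different from that in EV (0.38 ± 0.15, adjusted p = 0.0777) or in WT (0.27 ± 0.15, adjusted p = 0.297). TGF raised SMAD1 in KGN by 0.27 ± 0.07 (adjusted p = 0.00074) in the authors' deposited table. The noncoding gene SMAD1-AS1 (145514578 to 145517194) lies within SMAD1 and the library kit does not mark strand, so reads of the pair cannot be told apart where they overlap. SMAD1-AS1 was at 42.5 to 82.7 normalized counts where SMAD1 was at 237 to 462, and in the authors' deposited tables it was higher in C134W with TGF as well, by 0.57 ± 0.19 against WT and 0.64 ± 0.19 against EV.

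SMAD5 (chromosome 5, 136132845 to 136182733), the close paralog of SMAD1, moved less. Its implied level was 76.5 CPM for EV, 84.1 for WT and 82.5 for C134W without TGF, and 81.6, 98.4 and 98.5 with TGF. Both FOXL2-expressing groups thus lay above EV with TGF. C134W was higher than EV there by 0.29 ± 0.07 (adjusted p = 0.00015) in the authors' deposited table, and WT was higher than EV by 0.36 ± 0.10 (adjusted p = 0.00181) in the z test. C134W and WT did not differ beyond their error, at -0.07 ± 0.07 with TGF and -0.06 ± 0.06 without TGF in the authors' deposited tables, with 95% intervals from -0.21 to 0.07 and from -0.18 to 0.07. In KGN it stood at 130 without TGF and 141 with TGF, and TGF raised it by 0.17 ± 0.05 (adjusted p = 0.00295) in the authors' deposited table. SMAD5-AS1, which overlaps its start on the genome, had a mean of 1.1 to 2.8.

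SMAD9 (chromosome 13, 36844831 to 36920854), the third SMAD of the BMP branch, had the fewest reads behind it of the 10, with a mean of 57.0 to 88.5 normalized counts. Without TGF its implied level was 8.43 CPM for EV, 11.2 for WT and 6.61 for C134W, and with TGF it was 10.2, 6.86 and 3.96. C134W was the lowest group in both conditions. In the authors' deposited tables SMAD9 was lower in C134W than in WT, at -0.58 ± 0.14 without TGF (adjusted p = 0.000322) and at -0.75 ± 0.21 with TGF (adjusted p = 0.0015). Against EV it was lower in C134W, at -1.28 ± 0.20 with TGF (adjusted p = 1.45e-09) in the authors' deposited table, while the value without TGF was -0.28 ± 0.20 (adjusted p = 0.327). Those 2 values differed from each other, by -0.99 ± 0.28 (adjusted p = 0.00395), so the response to TGF was different in C134W from that in EV. The z test gave -0.17 ± 0.25 for the response of C134W against WT (adjusted p = 0.803). For the response of WT against EV it gave -0.83 ± 0.37 (adjusted p = 0.224), and neither passed. WT against EV was 0.29 ± 0.24 without TGF and -0.53 ± 0.29 with TGF, neither of which passed. KGN had 11.0 without TGF and 6.93 with TGF, and SMAD9 was lower with TGF, at -0.59 ± 0.14 (adjusted p = 0.000224) in the authors' deposited table. At this depth its errors were the widest of the 10 genes in all but the KGN table, and moderation toward 0 bore most on it: undone, the difference from WT without TGF was -0.80 in place of -0.58.

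SMAD4 (chromosome 18, 51030213 to 51085042), the partner that the phosphorylated SMADs share, passed in 0 of the 5 comparisons by DESeq2 in the authors' deposited tables, and in 0 at an unadjusted p under 0.05. Its implied level was 117 CPM for EV, 114 for WT and 125 for C134W without TGF, 119, 117 and 126 with TGF, and 133.8 and 130 in KGN without and with TGF. The 95% intervals of its 5 fold changes in the authors' deposited tables ran from -0.11 to 0.27, which bounds any difference at that size. None of the 5 tests made from differences of fold changes called it.

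SMAD6 (chromosome 15, 66702236 to 66782849), the inhibitory SMAD best known for restraining the BMP branch, was ordered differently with and without TGF. Without TGF its implied level was 13.5 CPM for EV, 27.8 for WT and 22.3 for C134W. With TGF the levels were 20.4 in EV, 14.9 in WT and 22.6 in C134W. Without TGF, WT was higher than EV by 0.99 ± 0.19 (adjusted p = 5.4e-06) in the z test. C134W was higher than EV there too, by 0.69 ± 0.16 (adjusted p = 0.000112), and lower than WT, at -0.29 ± 0.11 (adjusted p = 0.0351) in the authors' deposited tables. That last call ended when all genes with a p-value were adjusted together (adjusted p = 0.053). With TGF, C134W was higher than WT by 0.50 ± 0.13 (adjusted p = 0.000819) in the authors' deposited table, and the value against EV was 0.17 ± 0.12 (adjusted p = 0.281). WT against EV with TGF was at -0.34 ± 0.18 in the z test, which did not pass (adjusted p = 0.144).

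The response to TGF differed between C134W and WT, at 0.80 ± 0.17 (adjusted p = 9.37e-05) in the z test. That test asks whether the fold changes with and without TGF differ. Whether their signs were opposite was not tested. SMAD6 was the only one of the 10 genes to pass that test, where 11% of 15204 genes did (5.16% upward, 5.87% downward). EV had a log2 ratio of implied levels with to without TGF of 0.59, against -0.90 for WT and 0.03 for C134W. WT differed from EV in this response by -1.32 ± 0.26 (adjusted p = 3.36e-05), and C134W was at -0.53 ± 0.20 against EV, which did not pass (adjusted p = 0.0511) but passed with moderation undone (adjusted p = 0.0429). KGN stood at 19.8 without TGF and 17.9 with TGF, with -0.08 ± 0.16 (adjusted p = 0.739) in the authors' deposited table. Its promoter holds the palindromic SMAD box printed above.

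SMAD7 (chromosome 18, 48919853 to 48950965), the inhibitory SMAD that recruits ubiquitin ligases to TGF-beta receptors, had its highest level in EV with TGF. The implied level without TGF was 34.1 CPM for EV, 45.2 for WT and 40.0 for C134W. EV had 98.1 with TGF, WT 72.8 and C134W 55.1, so the order with TGF ran EV, WT, C134W. Both steps of that order passed: C134W was lower than WT, at -0.47 ± 0.08 (adjusted p = 4.27e-07) in the authors' deposited table, and WT was lower than EV, at -0.34 ± 0.11 (adjusted p = 0.011) in the z test. Under the empirical null neither step passed (adjusted p = 0.205 and 0.736), and the step from EV to WT missed a threshold of 0.01. C134W was lower than EV, at -0.81 ± 0.08 (adjusted p = 1.19e-24), or 1.75-fold, in the authors' deposited table. Without TGF the direction against EV was the opposite, with WT higher than EV by 0.44 ± 0.14 (adjusted p = 0.0108). C134W was at 0.26 ± 0.11 against EV (adjusted p = 0.0718) and at -0.18 ± 0.08 against WT (adjusted p = 0.1) without TGF in the authors' deposited tables.

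As a fold of implied levels, SMAD7 with TGF was 2.88 times its level without TGF in EV, 1.61 times in WT and 1.38 times in C134W. The response differed from that in EV by -0.78 ± 0.18 on the log2 scale in WT (adjusted p = 0.000563), and in C134W by -1.06 ± 0.13 (adjusted p = 1.12e-13). C134W and WT did not pass as different from each other in this response (-0.28 ± 0.12, adjusted p = 0.115). In KGN the level was 65.0 without TGF and 73.2 with TGF, and TGF raised SMAD7 by 0.23 ± 0.07 (adjusted p = 0.00503) in the authors' deposited table.

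SKI (chromosome 1, 2228319 to 2310213), the corepressor that binds SMAD complexes on chromatin, differed mainly between EV and the FOXL2-expressing groups. Its implied level was 79.9 CPM for EV, 96.5 for WT and 95.8 for C134W without TGF, and 73.2, 78.3 and 83.4 with TGF. C134W was higher than EV by 0.29 ± 0.09 without TGF (adjusted p = 0.00951) and by 0.20 ± 0.08 with TGF (adjusted p = 0.0286) in the authors' deposited tables, the second call ending when fold changes were centred on the median gene (adjusted p = 0.0581). WT was higher than EV by 0.32 ± 0.11 without TGF (adjusted p = 0.0199), and the value with TGF was 0.19 ± 0.12 (adjusted p = 0.221). C134W and WT did not differ beyond their error, at -0.04 ± 0.06 without TGF and 0.02 ± 0.08 with TGF in the authors' deposited tables. In KGN, at 109 without TGF and 100.3 with TGF, the value was -0.06 ± 0.07 (adjusted p = 0.536) in the authors' deposited table.

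SKIL (chromosome 3, 170357715 to 170396849), the SKI paralog also called SnoN, had the highest ratio of implied levels with to without TGF of the 10 genes in each HGrC1 genotype. The implied level without TGF was 79.6 CPM for EV, 90.7 for WT and 84.4 for C134W. EV had 451 with TGF, WT 266 and C134W 207. No difference between the 3 groups passed without TGF, at 0.11 ± 0.11 for C134W against EV and -0.12 ± 0.11 for C134W against WT in the authors' deposited tables and at 0.23 ± 0.15 for WT against EV in the z test. With TGF each step of the order EV, WT, C134W passed. C134W was lower than EV, at -1.10 ± 0.07 (adjusted p = 3.62e-56), a 2.15-fold lower level, and lower than WT, at -0.42 ± 0.08 (adjusted p = 5.13e-07) in the authors' deposited tables. WT was lower than EV, at -0.68 ± 0.10 (adjusted p = 1.04e-09) in the z test. Under the empirical null the step from WT to C134W (adjusted p = 0.21) and that from EV to WT (adjusted p = 0.0604) did not pass, while C134W against EV did.

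As a fold of implied levels, SKIL with TGF was 5.67 times its level without TGF in EV, 2.93 times in WT and 2.45 times in C134W. The response differed from that in EV by -0.91 ± 0.18 on the log2 scale in WT (adjusted p = 3.65e-05) and by -1.22 ± 0.13 in C134W (adjusted p = 4.75e-20). Between C134W and WT the difference in response was -0.31 ± 0.13 and did not pass (adjusted p = 0.129). In KGN the level was 84.8 without TGF and 114 with TGF, and TGF raised SKIL by 0.48 ± 0.07 (adjusted p = 3.62e-11), or 1.40-fold, in the authors' deposited table.

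**Figure D2:**
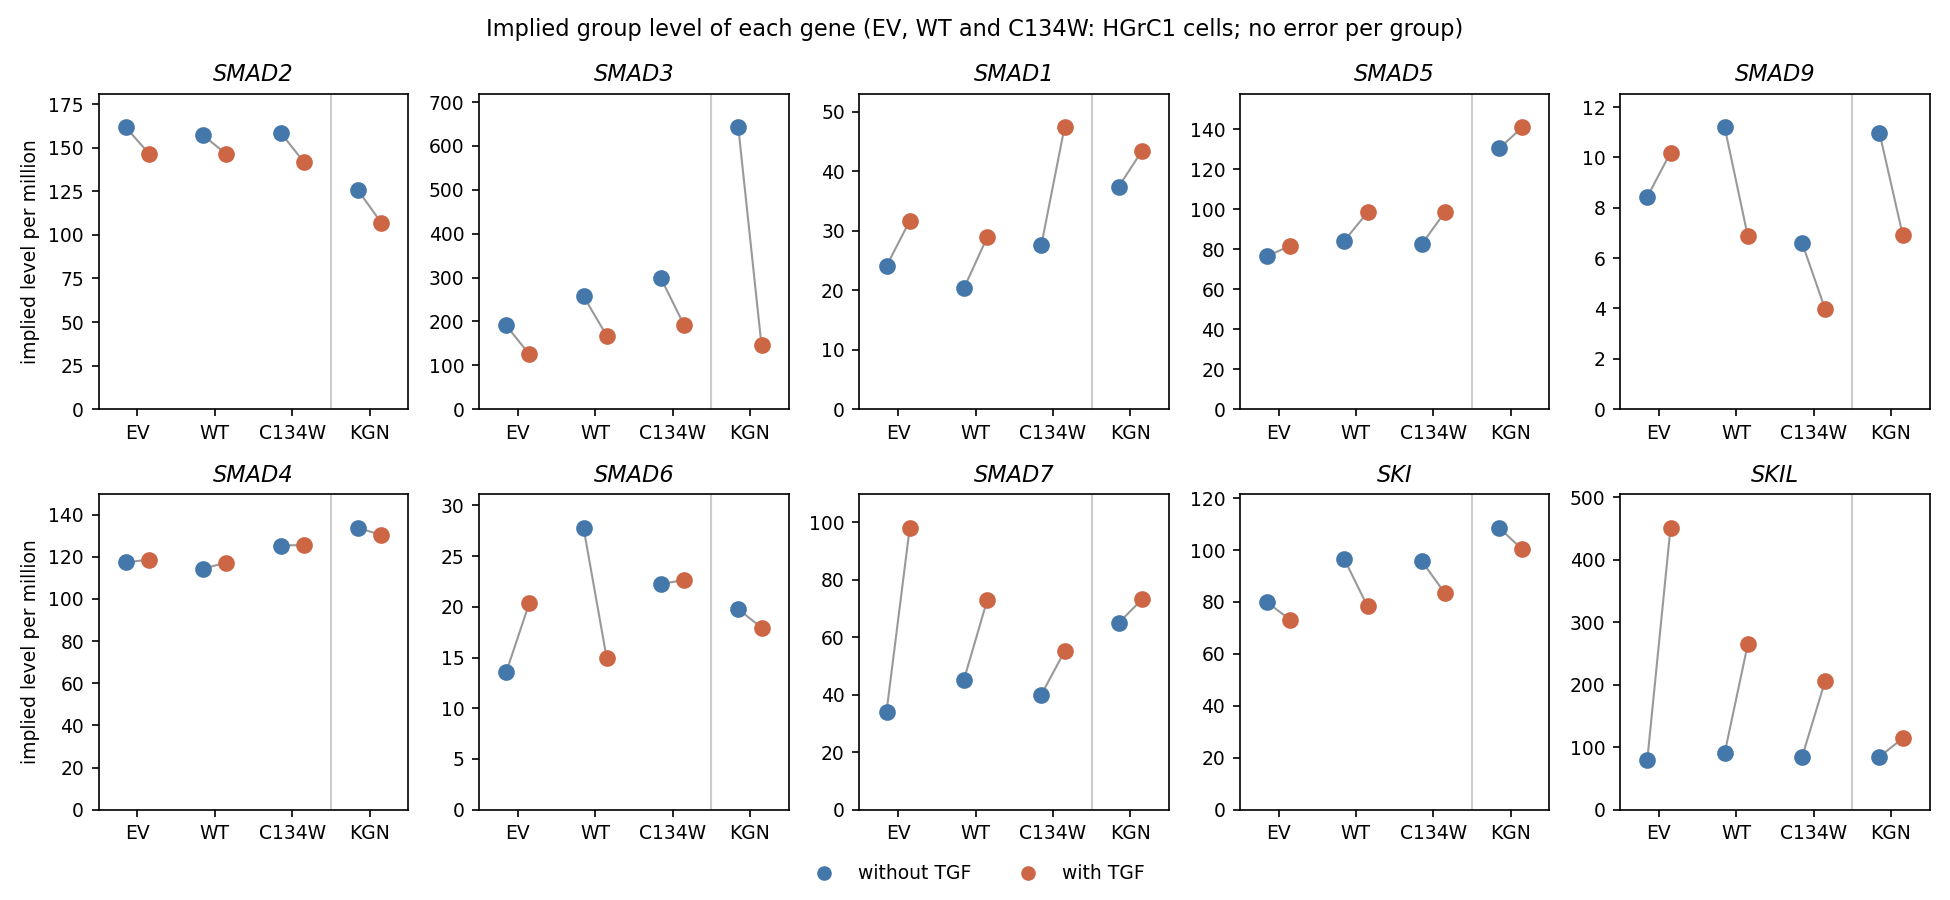
Implied level CPM (vertical axis, from 0, a scale of its own in each panel) without TGF (blue) and with TGF (red) for EV, WT and C134W in HGrC1 and for KGN, each point 1 group and with no error; C134W levels are those of the comparison with EV. SKIL and SMAD7 with TGF step down from EV through WT to C134W, SMAD6 in WT goes from 27.8 to 14.9, and SMAD3 in KGN goes from 642 to 145.

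Across the 10 genes, 3 differed between C134W and EV in their response to TGF, SKIL, SMAD7 and SMAD9, where 16.1% of 15261 genes passed that test (8.29% upward, 7.83% downward). As log2 ratios of implied levels, SKIL and SMAD7 had a smaller positive response in C134W than in EV. That of SMAD9 was negative in C134W (-0.74) and also in WT (-0.71), beside a positive one in EV (0.27). WT differed from EV in the response of 3 genes, SMAD6, SMAD7 and SKIL, where 6.01% of 14964 genes passed (3.51% upward, 2.51% downward). That last test was added after the tables had been seen. Under the empirical null these calls remained except that of SMAD9 (adjusted p = 0.234), where 5.87% of all genes passed for C134W against EV and 2.97% for WT against EV. That of SMAD6 between C134W and WT remained too, where 4.74% passed, and it shares the WT libraries with that between WT and EV. SKIL and SMAD7, the 2 feedback genes, thus passed against EV in both WT and C134W, 2 tests that share the EV libraries. SMAD2, SMAD3, SMAD1, SMAD5, SMAD4 and SKI passed none of the 3 tests of response. The responses themselves, without an error, had the same sign under a second scaling by the median gene for each of the 10 genes in EV, WT and C134W. That scaling moved the log2 ratios up by less than 0.1.

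**Figure D3:**
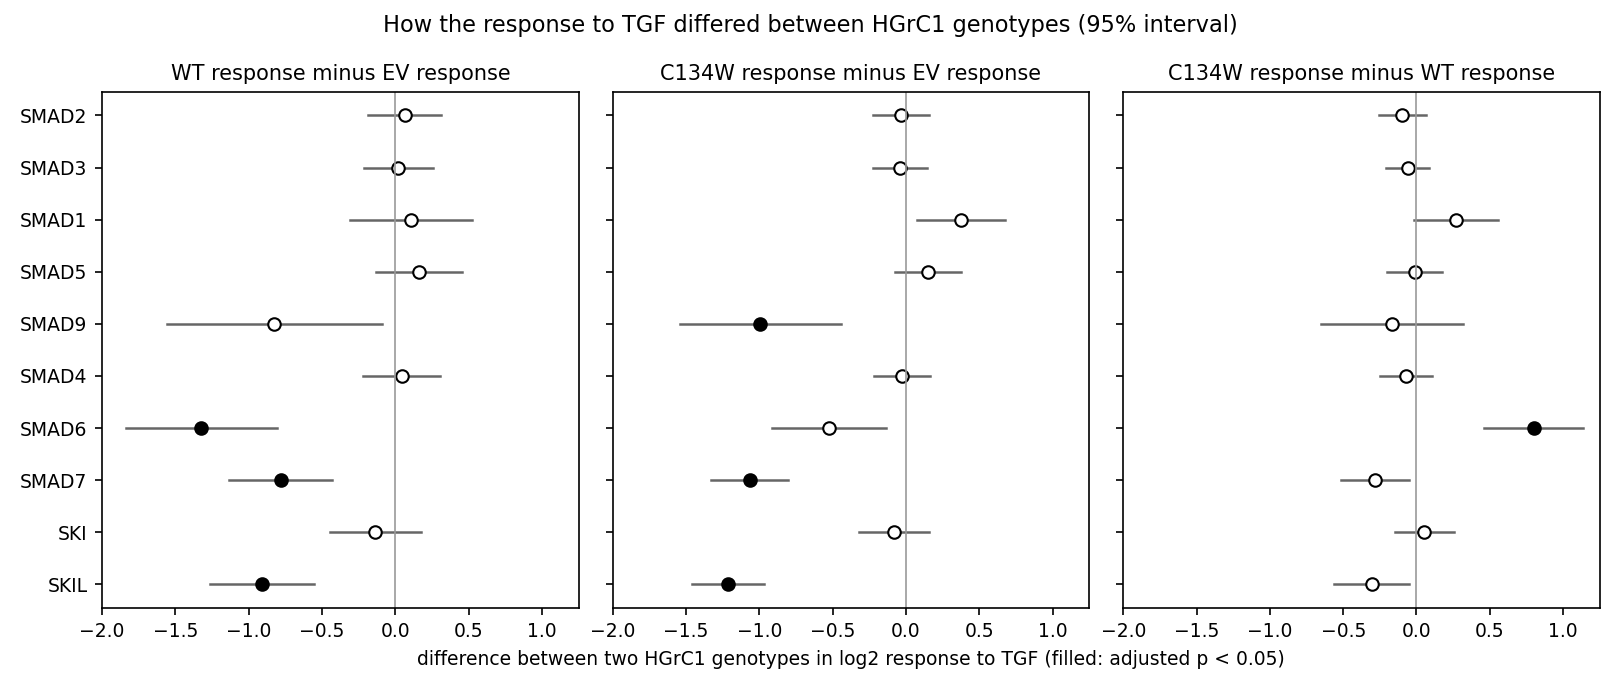
Difference between HGrC1 genotypes in the log2 response to TGF (horizontal axis, with its 95% interval) for each gene, 1 panel per pair of genotypes; filled points have an adjusted p under 0.05. SKIL and SMAD7 lie below 0 against EV in both WT and C134W, and SMAD6 is the filled point above 0 between C134W and WT, at 0.80.

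The genes around the SMADs were counted in 4 lists chosen with earlier results of these data known. Of 14 receptor genes, 12 had an adjusted p with TGF against WT, and 3 were higher and 3 lower in C134W by the authors' deposited table, where 34.6% of all genes passed. ACVR1, a type I receptor for BMPs and activins, was higher in C134W than in WT with TGF by 0.64 ± 0.09 in the authors' deposited tables, and higher than in EV by 0.80 ± 0.11 without TGF and 0.99 ± 0.09 with TGF. It was also raised by TGF in KGN, by 0.84 ± 0.06 in the authors' deposited table. BMPR2, the type II receptor for BMPs, was lower in C134W with TGF in the authors' deposited tables, at -0.33 ± 0.08 against WT and -0.30 ± 0.07 against EV. TGFBR2, the type II receptor that binds TGF-beta, was -0.25 ± 0.08 against WT with TGF, 0.38 ± 0.08 against EV without TGF and -0.56 ± 0.11 in KGN, each passing in the authors' deposited tables. ACVR1B, an activin type I receptor, was lower with TGF in KGN, at -0.66 ± 0.11 in the authors' deposited table, where 3 receptor genes were higher and 6 lower of 13 and 39.8% of all genes passed. Against EV, 6 of 12 receptor genes were higher and 1 lower with TGF in the authors' deposited table, and 5 of 11 were higher and 0 lower without TGF; of all genes 22.5% were higher and 20.2% lower, and 13.7% higher and 12% lower. Without TGF against WT 1 of 11 passed, downward, in the authors' deposited table, against 22.4% of all genes.

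Genes of SMAD turnover and adaptor proteins numbered 24. With TGF, 2 were higher and 9 lower in C134W than in WT in the authors' deposited table, and 3 were higher and 11 lower than in EV, where of all genes 17.3% were higher and 17.4% lower than in WT and 22.5% and 20.2% than in EV. Without TGF 2 of 23 passed against WT and 7 of 23 against EV in the authors' deposited tables, and in KGN 4 of 24 were higher and 7 lower, where 22.4%, 25.7% and 39.8% of all genes passed. BAMBI, a decoy receptor that blocks the pathway, was lower in C134W with TGF, at -2.21 ± 0.07 against EV and at -0.75 ± 0.09 against WT, and lower than in EV without TGF, at -0.88 ± 0.07, in the authors' deposited tables. TGF lowered it in KGN, at -1.60 ± 0.11 in the authors' deposited table. PMEPA1, an inhibitor that sequesters SMAD2 and SMAD3 and is induced by TGF-beta, was lower in C134W than in WT with TGF, at -0.54 ± 0.07, higher than in EV without TGF by 0.73 ± 0.13, and raised by TGF in KGN by 1.19 ± 0.06, in the authors' deposited tables. SMURF2, a ubiquitin ligase brought to receptors by SMAD7, was higher in C134W than in EV by 0.60 ± 0.09 without TGF and 0.75 ± 0.07 with TGF in the authors' deposited tables. LDLRAD4, a membrane relative of PMEPA1, had the highest value of the list in KGN, where TGF raised it by 2.78 ± 0.16 in the authors' deposited table.

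Of 27 nuclear partners, 25 had an adjusted p with TGF, and 6 were higher and 2 lower in C134W than in WT in the authors' deposited table, where 34.6% of all genes passed. RUNX2, a transcription factor that binds SMADs, was higher in C134W in the authors' deposited tables against WT, by 0.76 ± 0.11 without TGF and 1.30 ± 0.12 with TGF, and against EV, by 0.87 ± 0.14 and 1.69 ± 0.11. In the other comparisons of the authors' deposited tables, 6 of 24 were higher and 1 lower than in WT without TGF, 5 of 25 were higher and 9 lower than in EV with TGF, and 4 of 25 were higher and 3 lower than in EV without TGF. Of all genes 22.4%, 42.7% and 25.7% passed in these comparisons. The corepressor TGIF1 was higher in C134W with TGF in the authors' deposited tables, by 0.55 ± 0.07 against WT and 0.74 ± 0.07 against EV, and TGF raised it in KGN by 0.34 ± 0.08. KAT2B, an acetyltransferase, was lower with TGF in KGN and had the lowest value of the list there, at -0.83 ± 0.08 with TGF in the authors' deposited table, where 2 nuclear partners were higher and 10 lower of 27 and 39.8% of all genes passed.

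The 7 SMAD responsive genes had the largest median size of log2 fold change of these 4 lists in each of the 5 comparisons, 0.51 to 1.08. With TGF, 6 were lower in C134W than in WT and 1 was higher in the authors' deposited table, where 34.6% of all genes passed, with a median log2 fold change of -1.02 where it was 0.00 over all tested genes. TGFBI, a matrix protein, was lower, at -1.77 ± 0.05, and CTGF (now CCN2), a matricellular protein, was the higher member, at 0.14 ± 0.05, in the authors' deposited table. Without TGF 6 of 7 were lower in C134W than in WT in the authors' deposited table, with a median of -0.51, where 22.4% of all genes passed. Against EV the list was split, with 3 higher and 3 lower with TGF and 5 higher and 2 lower without, in the authors' deposited tables, where 42.7% and 25.7% of all genes passed. With TGF, CTGF was higher than in EV by 1.72 ± 0.05 in the authors' deposited table. ID3, a BMP-induced inhibitor of differentiation, was higher in C134W than in EV with TGF by 0.85 ± 0.12 in the authors' deposited table. Without TGF, ID1, its relative, was higher than in EV by 1.38 ± 0.14 in the authors' deposited table. ID2 was lower there, at -0.46 ± 0.11. TGFBI was higher in C134W than in EV without TGF and lower with TGF in the authors' deposited tables. TGF raised CTGF by 1.92 ± 0.06 in KGN and lowered ID2 and ID3, at -1.08 ± 0.18 and -0.62 ± 0.13, in the authors' deposited table, where 3 of the 7 were higher and 3 lower and 39.8% of all genes passed.

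**Figure D4:**
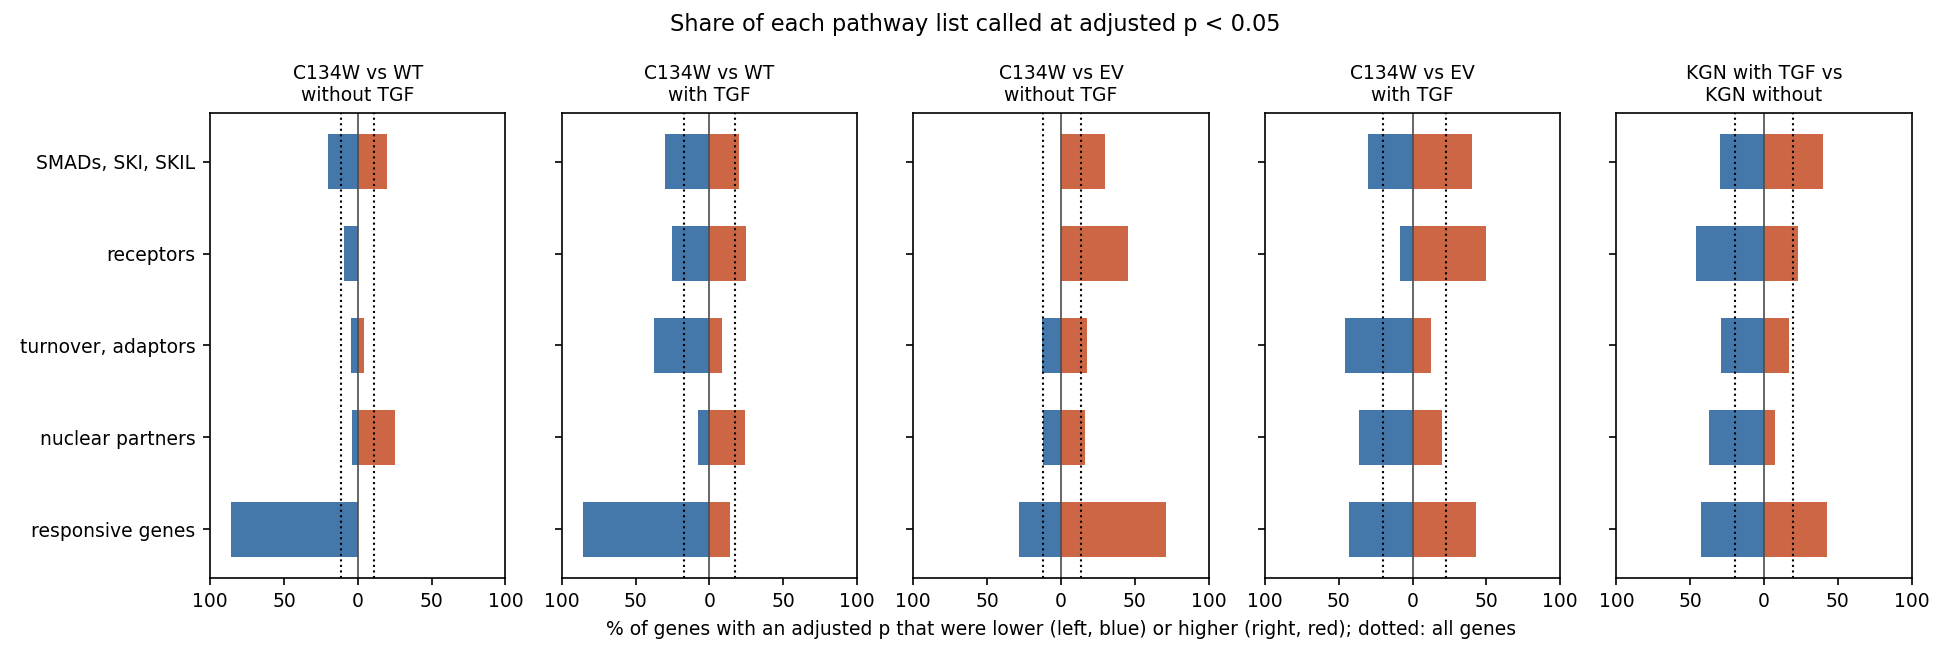
Percent of the genes with an adjusted p in each list that were lower (left, blue) or higher (right, red), 1 panel per comparison; dotted lines give the percent of all tested genes. The SMAD responsive genes reach 6 of 7 lower in C134W against WT with and without TGF, and receptor genes lie to the right against EV.

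SMAD3 and SKIL were the 2 genes with a log2 fold change of at least 1 in size somewhere and a mean of at least 100 in all tables. Among 8298 genes with such a mean, the 3 with the 5 deposited fold changes nearest to those of SMAD3, by Euclidean distance on the log2 scale, were PITX1 (0.55), CAMK2D (0.63) and C1QTNF1 (0.64). In KGN the value was -1.62 for PITX1, a homeobox factor gene, -2.06 for CAMK2D, a calmodulin-dependent kinase gene, and -2.19 for C1QTNF1, a secreted protein gene, in the authors' deposited table. Nearest to SKIL were ZNF697, a zinc finger gene (0.32), MTSS1L, an actin regulator gene (0.35), and MAP3K2, a kinase gene (0.37). Against EV with TGF these 3 were at -0.87, -1.01 and -0.80 in the authors' deposited table, where SKIL was at -1.10. The 5 fold changes share libraries between tables, so these distances describe likeness over 5 values that are not independent.

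**Figure D5:**
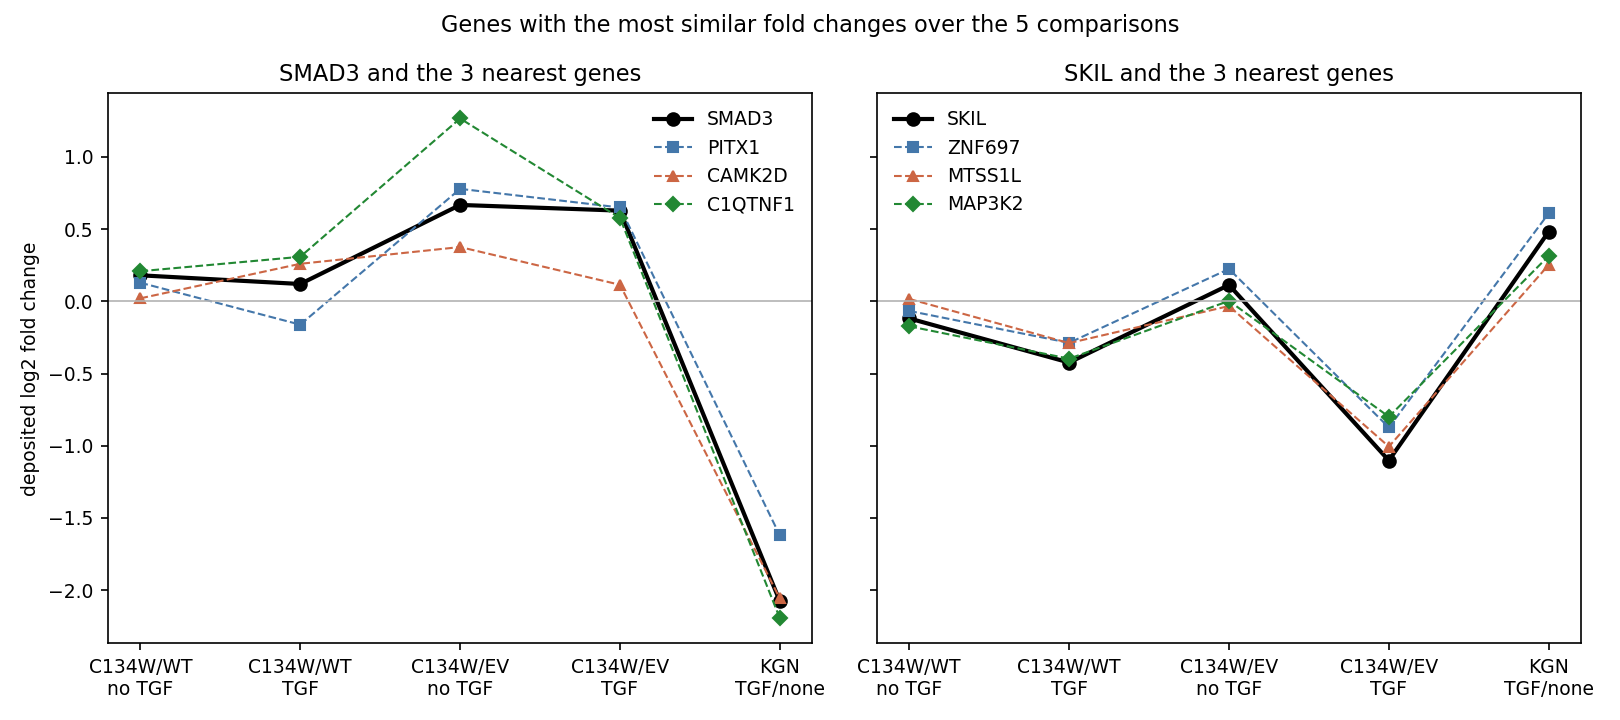
Deposited log2 fold changes (vertical axis) over the 5 comparisons for SMAD3 and SKIL (black) and the 3 genes nearest to each (colors, dashed). The genes near SMAD3 share its low point in KGN, and those near SKIL share its low point in C134W against EV with TGF. They were picked for nearness over these same 5 values, so a shared low point follows from the choice.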

How the data were processed

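RNA of 27 samples was measured by sequencing of libraries made with a kit that does not mark strand, per the labels' protocols. Trimmomatic 0.36.0, Bowtie2, HTSeq 0.6.1, DESeq2 (by the authors) and the build hg38 are named, with no roles, in the submitters' processing notes, with no version for DESeq2. For every gene and comparison the authors deposited a signal, the mean of size-factor normalized counts over both groups, then a log2 fold change with a standard error on the log2 scale, a Wald score, a p-value and its Benjamini-Hochberg adjusted p-value. The authors' deposited DESeq2 adjusted p was the test of each comparison. The 78 samples from chromatin immunoprecipitation, with their inputs, are not used here.

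The pattern of deposited standard errors showed fold changes moderated by a normal prior, which was undone to obtain implied levels and as an alternative. Single-read genes gave the number of libraries and their approximate depth. Differences between deposited log2 fold changes were tested by a two-sided z test, with the root of the summed squared errors and Benjamini-Hochberg adjustment over all genes with a mean of at least 1 in each table used. The pairs with and without TGF share no library. For WT against EV the noise of the shared C134W libraries cancels in part, so that error may be too large. The standard deviation of the prior was not equal, at 0.307 against WT and 0.599 against EV without TGF. With TGF it was 0.589 and 0.905. Unequal moderation can shift the difference itself. For SMAD9 without TGF, WT against EV was 0.29 as deposited and 0.48 with moderation undone. The same members passed between WT and EV with moderation undone. The z test of a difference between 2 fold changes was run on simulated data with noise drawn separately for each table. Shared libraries and the test of response between WT and EV were not simulated. Named list genes are the 2 highest and 2 lowest that passed per comparison, with a mean of at least 100, and the text describes a part of them. Some of these genes are not reported here. The members and lists were chosen with earlier results of these data known. Python 3.11.15, numpy 2.4.6, pandas 2.3.3, scipy 1.17.1 and matplotlib 3.10.9 were used.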

Additional observations from a re-analysis of the deposited data

Results flagged for a closer look

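SMAD6, SMAD7, SKIL and SMAD9 differed between HGrC1 genotypes in their response to TGF by the z test of the difference itself. Of all genes, 11% passed that test for C134W against WT, 16.1% for C134W against EV and 6.01% for WT against EV. The one for WT against EV was added after the data had been seen. SMAD6 differed between C134W and WT by 0.80 ± 0.17 on the log2 scale (adjusted p = 9.37e-05) and between WT and EV by -1.32 ± 0.26 (adjusted p = 3.36e-05). Both SMAD6 tests use the WT libraries, so they are not independent. SMAD7 differed by -1.06 ± 0.13 between C134W and EV (adjusted p = 1.12e-13) and by -0.78 ± 0.18 between WT and EV (adjusted p = 0.000563). SKIL differed by -1.22 ± 0.13 between C134W and EV (adjusted p = 4.75e-20) and by -0.91 ± 0.18 between WT and EV (adjusted p = 3.65e-05). SMAD9 differed by -0.99 ± 0.28 between C134W and EV (adjusted p = 0.00395), at the lowest mean count of the 10 genes. No values per library were at hand for any group, so no sample could be examined as standing apart.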

How the results depend on the processing

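No paired analysis was possible because the deposited tables hold no value per library, and leaving out each replicate could not be run for the same reason. No value that passed changed sign under any setting run; 3 values near 0 that did not pass did when centred on the median gene (SMAD4 in KGN, the response of SMAD5 between C134W and WT, and that of SMAD3 between WT and EV). The setting that moved most divided the test statistic by its own spread over all genes (an empirical null). Under it 0 of the 10 genes were called against WT with TGF in place of 5, 0 against WT without TGF in place of 4, 3 against EV with TGF in place of 7, 1 against EV without TGF in place of 3 and 1 in KGN in place of 7. Of all genes it called 5.4%, 4.69%, 8.73%, 6.76% and 8.68% in that order, in place of 34.6%, 22.4%, 42.7%, 25.7% and 39.8%. Between WT and EV it called 2 without TGF (SMAD3, SMAD6) and 0 with TGF (2 at an unadjusted p under 0.05), in place of 4 each. Of all genes it called 6.33% and 5.49% there, in place of 18.7% and 32.5%. It left SMAD6 between C134W and WT, SMAD7 and SKIL between C134W and EV, and SMAD6, SMAD7 and SKIL between WT and EV as different in their response to TGF, and ended that of SMAD9 (adjusted p = 0.234). Of all genes 4.74%, 5.87% and 2.97% passed these tests of response under it, in the same order. The cause was not tested. A threshold of 0.01 left 2 genes between WT and EV without TGF, SMAD3 and SMAD6, where 2034 of 15245 genes passed. The response of SMAD6 in C134W against EV passed with moderation undone, with a mean of at least 50 and with centred differences (adjusted p = 0.0429, 0.0408 and 0.04). Leaving out SMAD9, the gene with the fewest reads, was an alternative chosen after seeing the data. Of the other 9 genes, 4 were called against WT with TGF, 3 against WT without, 6 against EV with TGF, 3 against EV without and 6 in KGN. Of all genes 34.6%, 22.4%, 42.7%, 25.7% and 39.8% passed in these comparisons. Scaling by the median gene moved 28 of 100 implied levels by more than the standard error of the gene's log2 fold change, and the numbers of KGN libraries in the labels moved 2, both of SMAD3.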
